A study of Saccharomyces cerevisiae with 24 samples.

Results

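Transcript levels in a Saccharomyces cerevisiae strain carrying Sef1 with a strong added activation domain were set against those in a strain lacking SEF1, both grown in glycerol medium. The comparison used the 4 arrays titled SEF1-VP16_YPGly and the 4 arrays titled sef1_YPGly, 8 of the 24 one-colour expression arrays of the series. All strains were MATa haploids of the W303 background, which carries mutations in HIS3, TRP1, URA3, ADE2, LEU2 and CAN1. In sef1 (W303ScSef1NA1) the gene was replaced by NatMX4, and in SEF1-VP16 (W303ScSef1VP16NB1-4) Sef1 made from its own locus ended in the activation domain of VP16, a herpesvirus protein (SEF1-VP16::FRT). After a night in YPD, cells were set to 0.2 OD600 per ml in YPGly, in which glycerol replaces the glucose of YPD and cells must respire, and harvested 5.5 h later (30 °C). Each strain and medium had 4 biological replicates. The wild type in YPGly (WT) is given as a level for orientation only, since its arrays lay on another slide. The same pair of strains in YPD serves as the nearest comparison, although there each strain lay on its own slide.

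Sef1 is a transcription factor of the fungal zinc cluster family, whose members bind paired CGG triplets in promoters. In Candida albicans its counterpart activates iron uptake genes, whereas in S. cerevisiae it has been linked to genes of the tricarboxylic acid (TCA) cycle. VP16 recruits general transcription factors and chromatin-modifying complexes, so that a factor carrying it tends to activate wherever it is bound. Setting SEF1-VP16 against sef1 asks which transcripts differ between a hyperactive Sef1 and none, and the study drew candidate target genes from this comparison.

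Levels are log2 intensities relative to the 75th percentile of the array. They compare arrays for 1 gene, not genes with each other. A difference is SEF1-VP16 minus sef1 on the log2 scale with its standard error, and 1 unit is a 2-fold change. A probe was called when its limma p, adjusted over all tested probes by Benjamini-Hochberg, was below 0.05 and its level changed by at least 1.5-fold. Within a strain the arrays correlated with r of at least 0.992 across probes, which are not independent replicates, and the 75th percentile of intensity ran from 5320 to 14627 units over the 8 arrays. Replicate 1 of SEF1-VP16 was the dimmest array and deviated most from its group (SD of its deviations 0.19, against 0.09 to 0.15 for the others). All 8 arrays lay on 1 slide, sef1 in its first row and SEF1-VP16 in its second, so that row and strain cannot be told apart.

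The strain labels were checked on SEF1 (YBL066C, chromosome II). Its level was −3.75, −4.02, −3.98 and −4.32 on the 4 SEF1-VP16 arrays and −9.72, −10.59, −10.31 and −9.52 on the 4 sef1 arrays, of which 0 were well above background. The groups were far apart, and SEF1 was at least 22.1-fold higher in SEF1-VP16 (limma adjusted p 8.1e-08), a bound because the sef1 signal was background. For the bound, the sef1 level was replaced on each array by that of the dimmest probe well above background. The WT level was −3.44 ± 0.32 (SD, n = 4). YBL065W, a probe that the reference gene table does not name and whose systematic name places it beside SEF1 on the other strand, went the opposite way. It read −1.43, −1.51, −1.25 and −1.39 in SEF1-VP16 and 0.01, 0.02, −0.12 and 0.01 in sef1, a difference of −1.37 ± 0.07 (adjusted p 9.5e-07), while WT stood at −4.25 ± 0.13. In YPGly both engineered strains were above WT at this probe, across slides. In YPD it read −5.34 ± 0.05 in SEF1-VP16, −1.40 ± 0.03 in sef1 and −5.02 ± 0.04 in WT (SD, n = 4), so only sef1 was above WT there. Of the other 4 genes measured at the locus none was called. UBP13, a ubiquitin protease gene, differed by −0.43 ± 0.09 and PRX1, a mitochondrial peroxiredoxin gene, by 0.04 ± 0.11.

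Of 5641 tested probes 174 (3.08%) passed both criteria. In SEF1-VP16, 111 of them (1.97% of all tested) were increased and 63 (1.12%) were decreased. These shares are the background for the count of calls in each gene list below. Over all 5641 tested probes, called or not, 2983 differences lay below 0. The increases were larger: 38 of them reached 2-fold and 15 reached 4-fold, against 14 and 0 of the decreases. Cultures were measured in bulk, so that the share of cells with a transcript and its level per cell cannot be told apart. The median increase was 1.81-fold and the median decrease 1.62-fold. The 4 arrays of a strain did not overlap those of the other for 110 of the 111 increases and 61 of the 63 decreases, where 28.1% of all tested probes did not overlap. The 3 called probes with overlapping arrays were REE1 (0.93 ± 0.29), BSC5 (−0.60 ± 0.17) and YMR086C-A (−0.61 ± 0.17). They were named after their values were seen, and their calls were lost without 6, 5 and 6 of the 8 arrays in turn, at 0.73 to 1.03, −0.59 to −0.50 and −0.62 to −0.49.

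**Figure D1:**
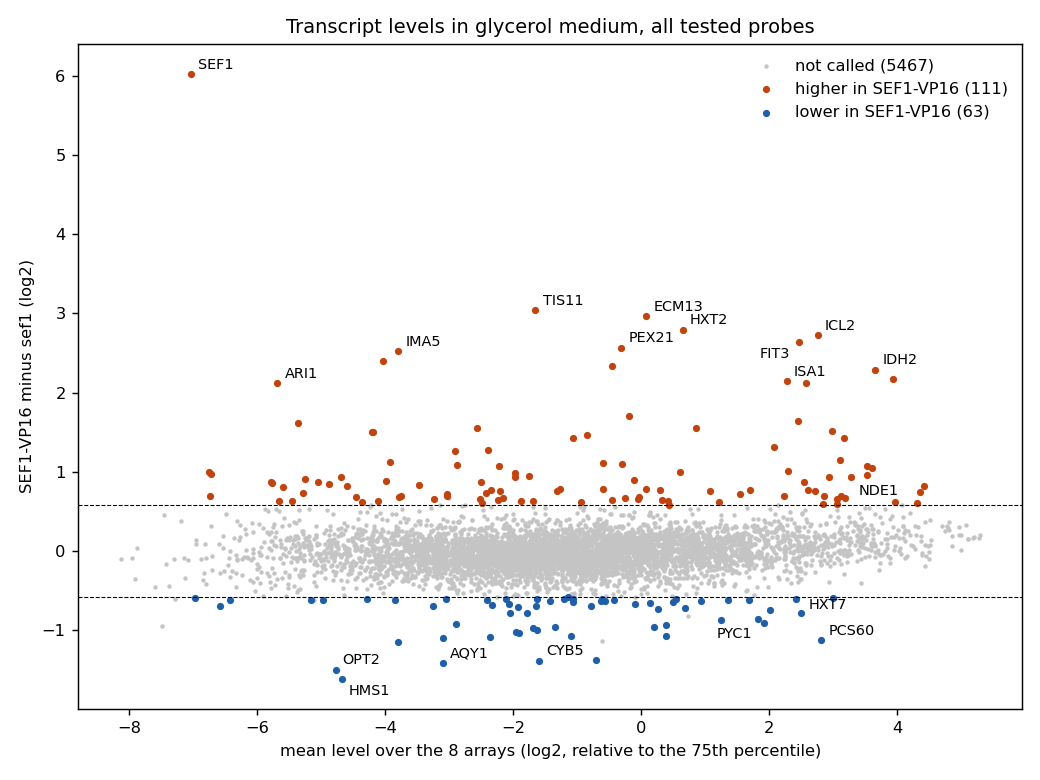
Difference between SEF1-VP16 and sef1 in YPGly (log2, vertical axis) against the mean level over the 8 arrays (log2 relative to the 75th percentile, horizontal axis) for 5641 probes, with the 1.5-fold limits dashed. The 111 called increases (orange) reach further from 0 than the 63 called decreases (blue), and SEF1 stands alone at the top, where its sef1 level is background.

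The TCA cycle oxidises acetyl-CoA to carbon dioxide and feeds electrons to the respiratory chain. Of its 12 measured genes to which the study assigned a Sef1 binding peak, 6 were called higher and none lower, with a median difference of 0.54 beside −0.01 over all tested probes. After quantile normalization 3 were called higher and the median was 0.30. IDH1 and IDH2, the subunits of the NAD-dependent isocitrate dehydrogenase of mitochondria, rose most. IDH1 (YNL037C, chromosome XIV) read 5.36, 4.90, 4.83 and 5.01 in SEF1-VP16 and 2.76, 2.76, 2.92 and 2.98 in sef1, 4.51-fold apart (2.17 ± 0.11, adjusted p 9.6e-07). IDH2 (YOR136W, chromosome XV) read 5.02, 4.79, 4.61 and 4.77 and 2.50, 2.41, 2.58 and 2.55, 4.89-fold apart (2.29 ± 0.09, adjusted p 1e-07). Neither gene's groups came near to overlapping, and both were above WT, which read 3.33 ± 0.19 for IDH1 and 2.78 ± 0.25 for IDH2.

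The other called genes of the list were CIT3, given below with the methylcitrate genes, and ACO1, CIT1 and FUM1, which rose less than the IDH pair and varied more. ACO1, aconitase, read 5.23, 4.60, 4.44 and 4.66 in SEF1-VP16 and 3.87, 3.43, 4.24 and 4.40 in sef1 (0.75 ± 0.22, adjusted p 0.034). CIT1, the main mitochondrial citrate synthase, read 5.18, 4.72, 4.60 and 4.83 and 3.82, 3.55, 4.27 and 4.43 (0.82 ± 0.19, adjusted p 0.013). FUM1, fumarase, read 4.63, 4.52, 4.59 and 4.69 and 3.85, 3.46, 4.34 and 4.38 (0.60 ± 0.18, adjusted p 0.035). In ACO1, CIT1 and FUM1 replicates 1 and 2 of sef1 were lower than replicates 3 and 4, and the gap to the nearest SEF1-VP16 array was small. None of these 3 genes was called by the methods' t-test or after quantile normalization, and ACO1 was not called after normexp background correction. The ACO1 call was lost without replicate 1, 2 or 4 of SEF1-VP16 or 1 or 2 of sef1 (0.56 to 0.79, adjusted p 0.051 to 0.086). The FUM1 call was lost without any one SEF1-VP16 array or without replicate 1 or 2 of sef1 (0.42 to 0.63). IDP2, a cytosolic isocitrate dehydrogenase, differed by 0.43 ± 0.16 (adjusted p 0.079) and MDH1, mitochondrial malate dehydrogenase, by 0.47 ± 0.16 (adjusted p 0.058), and neither was called.

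Among 16 TCA cycle genes without a peak 1 was called higher and none lower, with a median of 0.21, or none and 0.04 after quantile normalization. The called gene was SHH4, a paralog of the membrane anchor of succinate dehydrogenase (0.62 ± 0.18, adjusted p 0.034). Its call rested on replicate 1 of SEF1-VP16, at 2.15 where the others read 1.18, 1.29 and 1.5. It was also lost without replicate 4 of SEF1-VP16 or any one of the sef1 arrays (0.42 to 0.68 over the 6 exclusions). Succinate dehydrogenase itself was not called, with SDH1 at −0.09 ± 0.10 and SDH3 at 0.27 ± 0.11.

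Methylcitrate cycle genes, whose products break down propionate in mitochondria, rose together. ICL2, the 2-methylisocitrate lyase, read 4.16, 4.03, 4.13 and 4.15 in SEF1-VP16 and 1.43, 1.25, 1.43 and 1.48 in sef1, 6.6-fold apart with little spread (2.72 ± 0.07, adjusted p 6.6e-09). PDH1, the methylcitrate dehydratase, read 3.46, 3.50, 3.71 and 3.85 and 1.58, 1.15, 1.68 and 1.64 (2.12 ± 0.13, adjusted p 3.4e-06), and its neighbour CIT3, a citrate and methylcitrate synthase, 2.64, 2.65, 2.90 and 2.76 and 1.43, 1.27, 1.5 and 1.5 (1.31 ± 0.08, adjusted p 3.4e-06). For each of them WT lay between the strains, at 2.42 ± 0.29, 2.32 ± 0.34 and 1.92 ± 0.19. Genes of the glyoxylate shunt, by which yeast builds sugar from acetyl units, were not called, and its isocitrate lyase ICL1 differed by −0.04 ± 0.12 and its malate synthase MLS1 by 0.48 ± 0.15 (adjusted p 0.042). AAT2, a cytosolic aspartate aminotransferase described after its values were seen, rose by 1.42 ± 0.07 (adjusted p 9.6e-07).

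The study selected 6 candidate genes as increased in both media, with a peak and a known fitness cost, partly on these arrays, so their increase here is a description. ECM13, a gene of unknown function, read 1.77, 1.57, 1.42 and 1.48 in SEF1-VP16 and −1.27, −1.17, −1.55 and −1.63 in sef1 (2.97 ± 0.11). PEX21, which helps import proteins into peroxisomes, read 1.25, 0.91, 0.86 and 0.87 and −1.5, −1.65, −1.63 and −1.60 (2.57 ± 0.09). NDE1, the external NADH dehydrogenase that passes cytosolic electrons to the respiratory chain, read 3.75, 3.85, 3.73 and 3.67 and 2.64, 2.42, 3.10 and 3.11 (0.93 ± 0.14). MIG2, a glucose repressor, was dim, at −4.09, −4.42, −4.76 and −4.94 and −6.40, −5.93, −6.25 and −6.08 (1.61 ± 0.17), and AFT2 and CIT3 are given with the iron and methylcitrate genes. The groups of 4 arrays did not overlap for any of the 6, where 28.1% of all tested probes did not overlap. Since the 6 were selected partly on these arrays, nothing is read from this. NDE1 had the smallest difference of them, and its sef1 arrays split into 2.42 and 2.64 on one side and 3.10 and 3.11 on the other. Of 12 NADH dehydrogenase and glycerol genes NDE1 alone was called, with GUT2, the mitochondrial glycerol phosphate dehydrogenase, at 0.19 ± 0.13 and GCY1, a glycerol dehydrogenase, at 0.25 ± 0.11.

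**Figure D2:**
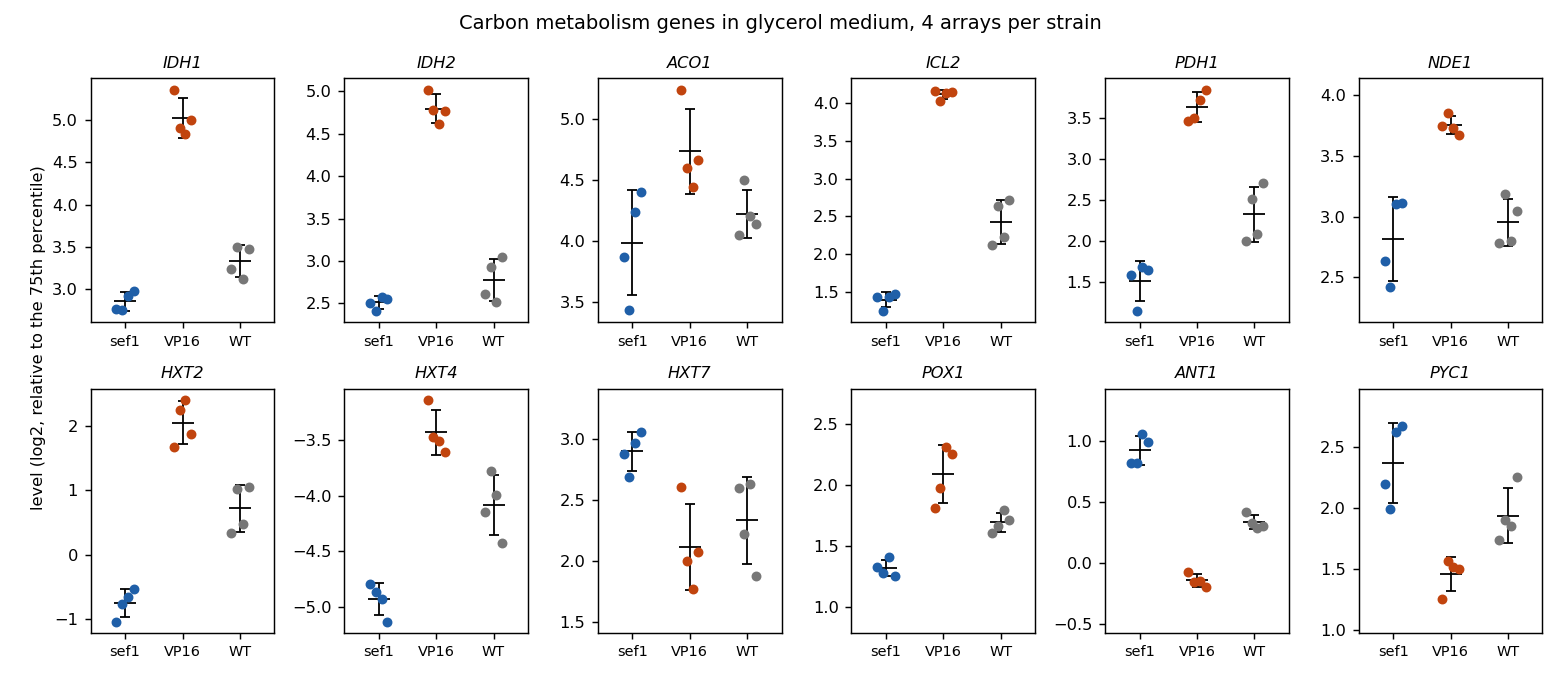
Level of 12 carbon metabolism genes on each array in YPGly (log2 relative to the 75th percentile, vertical axis, own scale for each gene) for sef1, SEF1-VP16 (VP16) and WT, with bars for mean and SD over 4 arrays. SEF1-VP16 lies above sef1 for IDH1, IDH2, ICL2 and PDH1 and below it for HXT7, ANT1 and PYC1. WT lay on another slide.

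Yeast takes up iron by 2 routes. Siderophores, iron chelators made by other microbes, are held in the cell wall by mannoproteins of the FIT genes and imported by ARN1, ARN2, SIT1 and ENB1, while the reductive route frees iron with surface reductases and imports it through the ferroxidase FET3 and the permease FTR1. The activators Aft1 and Aft2 switch on both routes when iron is scarce. Of the 7 siderophore genes 6 were called higher and none lower, with a median difference of 1.56. FIT3 read 3.73, 3.93, 3.82 and 3.67 in SEF1-VP16 and 0.82, 0.64, 1.46 and 1.67 in sef1 (2.64 ± 0.20, adjusted p 1.8e-05). FIT2, its neighbour on chromosome XV, read 1.02, 0.85, 0.47 and 0.53 and −2.13, −2.20, −1.23 and −0.89 (2.33 ± 0.27, adjusted p 0.00038). The third mannoprotein gene, FIT1, did not differ beyond its spread, at −2.77, −2.98, −2.86 and −2.97 and −2.67, −2.65, −2.85 and −3.05 (−0.09 ± 0.09, adjusted p 0.51).

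The transporters rose as well. SIT1, the ferrioxamine transporter, read 0.92, 0.66, 0.65 and 0.44 in SEF1-VP16 and −1.39, −1.46, −0.65 and −0.65 in sef1 (1.71 ± 0.19, adjusted p 0.0003). ARN1 read −1.54, −1.62, −1.72 and −2.28 and −3.70, −3.40, −3.19 and −3.09 (1.56 ± 0.17, adjusted p 0.00026). ARN2 read 0.03, −0.02, −0.14 and −0.32 and −1.58, −1.59, −1.59 and −1.54 (1.46 ± 0.08, adjusted p 1.2e-06), and ENB1, the enterobactin transporter, −1.82, −1.95, −1.89 and −2.20 and −2.74, −2.76, −2.71 and −2.70 (0.76 ± 0.08, adjusted p 0.00018). The sef1 arrays lay close together for ARN2 and ENB1 and apart for FIT2, FIT3, ARN1 and SIT1, with replicates 1 and 2 below 3 and 4. No SEF1-VP16 array reached the sef1 range for any of the 6 called genes. The groups also did not overlap for 110 of all 111 called increases and for 28.1% of all tested probes, so nothing further is read from it.

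On the reductive route 2 of 10 measured genes were called higher and none lower. FET3 read 0.61, 0.49, 0.32 and −0.06 in SEF1-VP16 and −0.99, −0.90, −0.21 and −0.12 in sef1 (0.90 ± 0.21, adjusted p 0.015) and FTR1 0.47, 0.39, 0.33 and 0.04 and −0.54, −0.56, −0.20 and −0.19 (0.68 ± 0.12, adjusted p 0.0034). For both, replicate 4 of SEF1-VP16 and replicates 3 and 4 of sef1 came close without overlapping, and FET3 was not called by the methods' t-test. The copper genes that serve this route were not called, with the copper transporter CTR1 at −0.22 ± 0.22 and CCC2, which loads copper into Fet3, at 0.38 ± 0.10.

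Inside the cell, 3 of 15 genes of iron handling were called higher and none lower, with a median of 0.27. TIS11, also called CTH2, binds mRNAs of iron-using proteins and promotes their decay when iron is scarce. It read 0.12, −0.09, 0.01 and −0.55 in SEF1-VP16 and −3.95, −3.57, −2.68 and −2.49 in sef1, the largest difference after SEF1 (3.04 ± 0.29, adjusted p 0.00011), although its sef1 arrays spread over more than 1 unit. AFT2 read −1.62, −1.84, −1.79 and −1.78 and −3.0, −2.87, −3.06 and −3.21 (1.28 ± 0.08, adjusted p 4.7e-06) and AFT1 −2.02, −2.10, −2.31 and −2.32 and −2.94, −2.76, −2.80 and −2.85 (0.65 ± 0.08, adjusted p 0.00057). HMX1, heme oxygenase, was higher by 0.53 ± 0.10 without reaching 1.5-fold (adjusted p 0.0045), and COT1, a vacuolar metal transporter, differed by 0.17 ± 0.05. In WT, FIT3 read 0.96, 1.49, 0.83 and 2.39 and FET3 −1.34, −1.13, −1.65 and 0.12, and replicate 4 stood above the other 3 in both, as it did in FIT2, SIT1, ARN1 and TIS11.

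**Figure D3:**
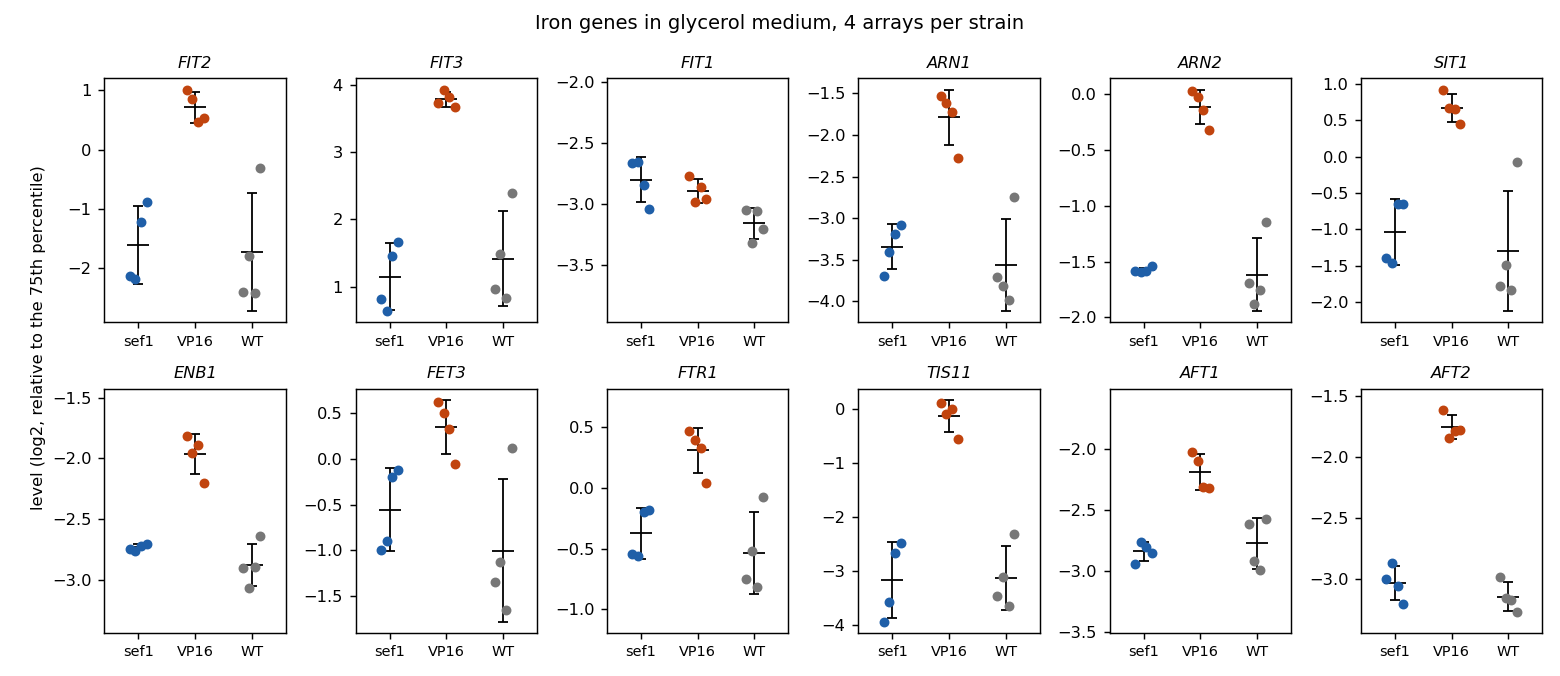
Level of 12 iron genes on each array in YPGly (log2 relative to the 75th percentile, vertical axis, own scale for each gene) for sef1, SEF1-VP16 (VP16) and WT, with bars for mean and SD over 4 arrays. All but FIT1 lie higher in SEF1-VP16 than in sef1 on every array, with wide gaps for TIS11 and FIT3 and a narrow one for FET3.

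Iron-sulfur clusters, cofactors of aconitase and of the respiratory chain, are assembled in mitochondria. Of 16 genes of this machinery 2 were called higher (12.5%, against 1.97% of all tested probes) and none lower, with a median of 0.14. ISA1, which acts late in assembly, read 3.49, 3.32, 3.29 and 3.28 in SEF1-VP16 and 1.24, 1.19, 1.17 and 1.22 in sef1, 4.41-fold apart (2.14 ± 0.06, adjusted p 1.9e-08). ISU1, the scaffold on which clusters form, read 3.79, 3.74, 3.71 and 3.72 and 2.11, 2.22, 2.19 and 2.37 (1.52 ± 0.07, adjusted p 2.8e-07). The arrays of a strain lay close together for both genes, far from those of the other. The cysteine desulfurase NFS1 (−0.08 ± 0.08) and MGE1, a nucleotide exchange factor of the mitochondrial chaperones (0.10 ± 0.08) were not called. None of 8 heme synthesis genes was called, and their median was 0.05.

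Hexose transporters import glucose and related sugars, each at its own range of affinity. Of 15 measured transporter and sensor genes 5 were called higher and 1 lower, with a median of 0.36 (0.21 after quantile normalization). HXT2, a high-affinity transporter, read 1.67, 2.24, 2.39 and 1.88 in SEF1-VP16 and −1.03, −0.76, −0.65 and −0.54 in sef1, 6.93-fold apart (2.79 ± 0.16, adjusted p 2.1e-06). HXT4 read −3.14, −3.47, −3.51 and −3.61 and −4.79, −4.87, −4.93 and −5.13 (1.5 ± 0.11, adjusted p 1.2e-05). HXT10 (1.12 ± 0.10), HXT1 (0.87 ± 0.13) and HXT8 (0.69 ± 0.08) rose from low levels, HXT8 short of a call after normexp background correction. HXT7, another high-affinity transporter, was the exception at 2.61, 2.0, 1.77 and 2.07 and 2.88, 2.68, 2.96 and 3.06 (−0.78 ± 0.16, adjusted p 0.007). Its near-identical neighbour HXT6 read 0.27 ± 0.14 in the other direction (adjusted p 0.18), and the probes may share signal between the pair. HXT5 was not called (0.43 ± 0.18).

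Of 12 genes for the use of alpha-glucosides and sucrose 1 was called higher (8.33%, against 1.97% of all tested probes) and none lower. IMA5, an isomaltase, read −3.06, −2.45, −2.27 and −2.35 in SEF1-VP16 and −5.0, −4.96, −5.07 and −5.17 in sef1, 5.74-fold apart at a dim level (2.52 ± 0.15, adjusted p 3.2e-06). The invertase gene SUC2 was higher by 0.49 ± 0.08 and the isomaltase gene IMA3 by 0.43 ± 0.07, both short of 1.5-fold. Of 25 regulators of carbon source response 4 were called higher (16%, against 1.97% of all tested probes) and none lower. With array medians, after quantile normalization or after normexp background correction 5 were called higher. Besides MIG2 these were STD1 (0.84 ± 0.13, adjusted p 0.0017) and MTH1 (0.73 ± 0.08, adjusted p 0.00028), paired regulators in the glucose induction of hexose transporters, and HAP4 (0.72 ± 0.06, adjusted p 4e-05), the activating subunit of the Hap complex that drives respiratory genes. The hexokinase and repression factor HXK2 (0.18 ± 0.17) and the gluconeogenic activator CAT8 (−0.04 ± 0.08) were not called.

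Peroxisomes house beta-oxidation, the stepwise cutting of fatty acids. Of 16 genes for it 5 were called higher and 1 lower, with a median of 0.41. The 3 core enzymes rose by similar amounts: POX1, the acyl-CoA oxidase, read 1.81, 1.97, 2.31 and 2.26 in SEF1-VP16 and 1.33, 1.28, 1.40 and 1.25 in sef1 (0.77 ± 0.11, adjusted p 0.001), FOX2, the multifunctional enzyme, differed by 0.77 ± 0.09 (adjusted p 0.00028) and POT1, the thiolase, by 0.76 ± 0.07 (adjusted p 0.0001). SPS19, needed for unsaturated fatty acids, differed by 0.69 ± 0.08 and DCI1, an isomerase homolog, by 1.11 ± 0.16. Catalase A, encoded by CTA1, differed by 0.55 ± 0.17 and was not called, except without replicate 3 or 4 of sef1 (0.65 and 0.67). MDH3, the peroxisomal malate dehydrogenase, differed by 0.23 ± 0.11.

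Other peroxisomal genes fell. ANT1, which carries ATP into peroxisomes for fatty acid activation, read −0.07, −0.16, −0.15 and −0.20 in SEF1-VP16 and 0.82, 0.82, 1.05 and 0.99 in sef1 (−1.07 ± 0.07, adjusted p 6.1e-06). PCS60, a peroxisomal oxalyl-CoA synthetase, read 2.45, 2.18, 2.09 and 2.30 and 3.22, 3.02, 3.66 and 3.62 (−1.13 ± 0.14, adjusted p 0.00061), and PXP1, a peroxisomal matrix protein, differed by −0.93 ± 0.10 (adjusted p 0.00026). Among 17 import genes 2 were called, both higher: PEX21 and PEX9, an import receptor induced by oleate, at −3.73, −3.50, −3.19 and −3.39 and −4.92, −4.90, −5.05 and −4.94 (1.5 ± 0.10, adjusted p 8.3e-06). PEX11 (0.47 ± 0.07) and PEX19 (0.08 ± 0.06) were not called. LPX1, a peroxisomal lipase named after its values were seen, rose by 1.02 ± 0.10 (adjusted p 0.00011).

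Genes of acetate and C1 metabolism changed singly. ADY2, an acetate transporter, rose by 0.96 ± 0.18 (adjusted p 0.005) and ACS1, an acetyl-CoA synthetase, by 0.59 ± 0.14 (adjusted p 0.017). The ACS1 call was lost without replicate 3 or 4 of SEF1-VP16 or replicate 2 of sef1 (0.43 to 0.58). PYC1, pyruvate carboxylase, which makes oxaloacetate, fell from 2.19, 1.99, 2.62 and 2.67 in sef1 to 1.25, 1.57, 1.52 and 1.5 in SEF1-VP16 (−0.91 ± 0.15, adjusted p 0.0023). The alcohol dehydrogenase ADH2 (0.39 ± 0.31) and the lactate transporter JEN1 (0.07 ± 0.20) were not called. The formate dehydrogenase probes FDH1 (1.04 ± 0.15), FDH2 (1.07 ± 0.15) and YPL276W (1.15 ± 0.13), the last named after its values were seen, rose alike. They stand for near-identical sequences and cannot be separated. The aldehyde dehydrogenase ALD5 fell by 0.63, a call lost without replicate 4 of SEF1-VP16 (−0.53), while ALD4 (0.33 ± 0.24) and ALD6 (−0.10 ± 0.19) were not called. DLD1, mitochondrial D-lactate dehydrogenase and also described after its values were seen, rose by 0.70 ± 0.09 and was not called after quantile normalization.

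Further leading increases belonged to no shared list. ARI1, a carbonyl reductase, read −4.42, −4.63, −4.63 and −4.80 in SEF1-VP16 and −6.94, −6.66, −6.63 and −6.74 in sef1 (2.12 ± 0.09, adjusted p 3.1e-07). MIX17, a protein of the mitochondrial intermembrane space, read 3.34, 3.26, 3.14 and 3.37 and 1.53, 1.49, 1.71 and 1.81 (1.64 ± 0.09, adjusted p 9.8e-07), and PIC2, a mitochondrial carrier of copper and phosphate, 1.96, 1.32, 1.42 and 1.81 and 0.19, 0.20, −0.06 and −0.04 (1.55 ± 0.14, adjusted p 5.4e-05). YOR135C, whose systematic name places it beside IDH2, rose by 2.40 ± 0.18 (adjusted p 1.7e-05), and its signal may not be separate from that gene. UPS2, which moves phospholipid between mitochondrial membranes, was the 1 called gene of 11 in its list, at 1.38, 1.53, 1.38 and 1.55 and 0.81, 0.68, 0.64 and 0.66 (0.76 ± 0.07, adjusted p 5.3e-05). Its WT level, −0.90 ± 0.34, was below both strains. TAZ1 (0.14 ± 0.06) and UPS1 (0.22 ± 0.07) of the same list were not called.

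Both arginine permease genes of the permease list were called higher. CAN1 read −0.20, −0.22, −0.32 and −0.63 in SEF1-VP16 and −1.85, −1.88, −1.76 and −1.62 in sef1 (1.43 ± 0.10, adjusted p 1.1e-05). CAN1 is mutated in this background (can1-100). Its paralog ALP1 differed by 0.64 ± 0.13, a call lost without replicate 3 of SEF1-VP16 (0.55). OPT2, an oligopeptide transporter, read −5.26, −5.58, −5.71 and −5.53 and −4.03, −3.69, −4.09 and −4.29 (−1.5 ± 0.13, adjusted p 5.1e-05), and SAM3, the S-adenosylmethionine permease, fell by 0.70 (adjusted p 4e-05). Of 24 permease genes 2 were called in each direction (8.33% each, against 1.97% higher and 1.12% lower of all tested probes). Of these 24, 20 lay below 0 (2983 of all 5641 tested probes did), and the median was −0.26. The general permease GAP1 (−0.13 ± 0.09) and the proline permease PUT4 (−0.07 ± 0.13) were not called.

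Genes of methionine and sulfur supply were among the decreases. MET6, the methionine synthase, read 0.63, 0.81, 0.93 and 0.86 in SEF1-VP16 and 1.63, 1.66, 1.79 and 1.62 in sef1 (−0.87 ± 0.08, adjusted p 5.3e-05). MET2, which makes O-acetylhomoserine, differed by −0.62 ± 0.11 and MET13, a methylenetetrahydrofolate reductase, by −0.63 ± 0.14. The MET2 call was lost without replicate 1 of SEF1-VP16 or 4 of sef1 (−0.54 and −0.58), and the MET13 call without replicate 2, 3 or 4 of SEF1-VP16 or 2 of sef1 (−0.58 to −0.57). SUL1, a sulfate permease, was the exception and rose by 0.64 ± 0.13, not without replicate 3 of SEF1-VP16 (0.56). In all 3 of 23 genes were called lower and 1 higher, with a median of −0.12. With arrays scaled to their median 1 was lower and 1 higher, and the median was −0.07. CYS4 (−0.25 ± 0.08) and MET17 (0.12 ± 0.22) were not called. SOA1, a sulfur compound transporter, fell from −2.56, −2.40, −2.57 and −2.68 to −3.09, −3.85, −3.86 and −3.79 (−1.09 ± 0.16, adjusted p 0.0013) and YCT1, a cysteine transporter, differed by −0.98 ± 0.11 (adjusted p 0.00022). ARG1, argininosuccinate synthetase, was the 1 called gene of 15 for arginine and lysine, at −1.41, −1.68, −1.86 and −1.59 and −0.63, −0.44, −0.59 and −0.60 (−1.07 ± 0.09, adjusted p 5.4e-05). LYS12 (0.28 ± 0.14) and LYS9 (0.01 ± 0.07) were not called.

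The largest decrease was in HMS1, a transcription factor of filamentous growth, which read −5.54, −5.34, −5.47 and −5.58 in SEF1-VP16 and −3.99, −3.69, −3.92 and −3.89 in sef1 (−1.61 ± 0.08, adjusted p 9.2e-07). AQY1, a water channel, read −3.40, −3.91, −3.90 and −4.0 and −2.51, −2.13, −2.38 and −2.55 (−1.41 ± 0.14, adjusted p 0.00011), and NFG1, a negative regulator of filamentous growth, −4.78, −4.21, −4.26 and −4.25 and −3.09, −3.11, −3.34 and −3.34 (−1.15 ± 0.13, adjusted p 0.00025). These 3 of 15 genes were called lower (20%, against 1.12% of all tested probes) and none higher, with a median of −0.11. The filamentation activator TEC1 (−0.34 ± 0.08) and the regulator SOK2 (−0.02 ± 0.07) were not called.

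Of 25 sterol synthesis genes 2 were called lower (8%, against 1.12% of all tested probes) and none higher, while 22 lay below 0 with a median of −0.23. Of all 5641 tested probes 2983 lay below 0. ERG5, the sterol desaturase near the end of the pathway, read −0.27, −0.21, −0.42 and −0.22 in SEF1-VP16 and 0.77, 0.76, 0.64 and 0.56 in sef1 (−0.97 ± 0.07, adjusted p 1.6e-05). HMG1, one of the HMG-CoA reductases that set the pathway's rate, differed by −0.61 ± 0.06, short of 1.5-fold without replicate 2 of sef1 (−0.58). CYB5, cytochrome b5, an electron donor to sterol and lipid enzymes, read −2.70, −2.06, −2.19 and −2.19 and −0.79, −0.89, −0.94 and −0.99 (−1.38 ± 0.12, adjusted p 5.6e-05). ERG20 (0.06 ± 0.15) and ERG6 (0.24 ± 0.16) were not called. Of 70 ribosome biogenesis genes 66 lay below 0, with a median of −0.24, yet only 1 was called: UTP20, at −0.59 ± 0.10, lost without replicate 1 of SEF1-VP16 or replicate 1 or 4 of sef1 (−0.57 to −0.50). NSR1 (−0.10 ± 0.15) and NHP2 (−0.27 ± 0.08) were not called. With arrays scaled to their median 62 of these 70 and 19 of the 25 sterol genes were below 0, and the medians were −0.19 and −0.18. Of all 5641 tested probes 2447 were below 0 at that scaling and 2909 after quantile normalization. None of 138 ribosomal protein genes was called, with a median of −0.07, which was −0.15 after quantile normalization (130 below 0) and −0.02 with array medians (82 below 0). SSB1 and SSB2, near-identical chaperones of the ribosome named after their values were seen, fell by 0.74 and 0.86, SSB1 short of 1.5-fold without replicate 1 of SEF1-VP16 (−0.58).

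Several other surface and transport genes were lower. PHO3, an acid phosphatase, read −2.76, −2.91, −3.01 and −2.92 in SEF1-VP16 and −1.83, −1.69, −1.85 and −1.89 in sef1 (−1.08 ± 0.07, adjusted p 6.4e-06), its neighbour PHO5 differed by −0.70 ± 0.10, and GIT1, which imports glycerophosphoinositol, by −1.0 ± 0.08 (adjusted p 1.8e-05). MNN4, a regulator of phosphate on cell wall mannans, differed by −1.04 ± 0.10 (adjusted p 0.00015). The drug efflux pumps PDR5 (−0.67 ± 0.07) and SNQ2 (−0.64 ± 0.06) and the near-identical sodium pumps ENA1 (−0.66 ± 0.08) and ENA2 (−0.72 ± 0.06) fell as well. PHO5 and these pumps were named after their values were seen. APS1, a subunit of a clathrin adaptor, differed by −1.02 ± 0.10 (adjusted p 0.00015) and MRK1, a GSK-3 family kinase, by −0.96 ± 0.09 (adjusted p 7.6e-05).

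Mating type markers were compared between the strains, which cannot test a mating type that both share. All 7 MATa-specific genes were measured, of which 2 were called lower and none higher, 5 lay below 0 and 2 above it. They include the a-factor genes MFA1 and MFA2, the alpha-factor receptor STE2 and the a-factor exporter STE6. Of the 4 alpha-specific genes both alpha-factor genes were too dim to be tested and the other 2 were not called. MFA2 fell by 0.92, from −2.42, −2.29, −2.51 and −2.51 in sef1 to −3.32, −3.28, −3.46 and −3.36 in SEF1-VP16 (adjusted p 1.8e-05). MFA1 fell by 0.61 (adjusted p 0.0017), a call lost without replicate 2 or 3 of SEF1-VP16 or replicate 1 of sef1 (−0.57 to −0.56). STE6 (−0.53 ± 0.08) and STE2 (−0.49 ± 0.06) lay below 0 without reaching 1.5-fold. ASG7, another MATa-specific gene and named after its values were seen, went the other way (0.58 ± 0.09, adjusted p 0.0018), just short of 1.5-fold. It was called higher with array medians and after quantile normalization (0.63 in both), when MFA1 was not called, and without replicate 2 or 3 of SEF1-VP16 or replicate 1 or 2 of sef1 (0.60 to 0.62). FUS3, a haploid mating kinase, differed by −0.40 ± 0.06, and RME1, the haploid repressor of meiosis, by 0.21 ± 0.09.

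Of 8 haploid and meiotic markers 1 was called: IME1, the inducer of meiosis, at −1.48, −1.53, −1.61 and −1.62 in SEF1-VP16 and −2.07, −2.04, −2.29 and −2.38 in sef1 (0.63 ± 0.08, adjusted p 0.00082), or 0.57 without replicate 4 of sef1. The median of this list was 0.00. The following called genes were picked singly after their values were seen and belong to no list, so they are no count of such genes. DMC1, the meiotic recombinase, read −2.51, −1.67, −1.0 and −1.54 and −2.61, −2.78, −2.80 and −2.83 (1.08 ± 0.25, adjusted p 0.013), with replicate 1 of SEF1-VP16 close to sef1, and was not called by the methods' t-test. MPC54, of the meiotic spindle pole, differed by 0.89 ± 0.09, the sporulation septin SPR28 by 0.83 ± 0.07, LDS2 of the spore wall by 0.85 ± 0.08, and the adjacent spore wall genes DIT1 and DIT2 by 0.66 ± 0.06 and 0.63 ± 0.08. All of these transcripts lay below the 75th percentile on every array.

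Lists without a called member serve as contrast. None of 35 respiratory chain and ATP synthase genes (median 0.04), 21 glycolytic genes (0.06), 28 general stress genes (0.10) or 7 mitochondrially encoded transcripts (0.17) was called. The cDNA was primed with oligo-dT, and how well it holds mitochondrially encoded transcripts was not tested, so equal levels are not read from them. After quantile normalization the medians of the respiratory (−0.04), glycolytic (−0.18) and stress (−0.02) lists lay below 0, with 23, 15 and 19 of their genes there, and none was called. Of all 5641 tested probes 2909 were below 0 at that setting.

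**Figure D4:**
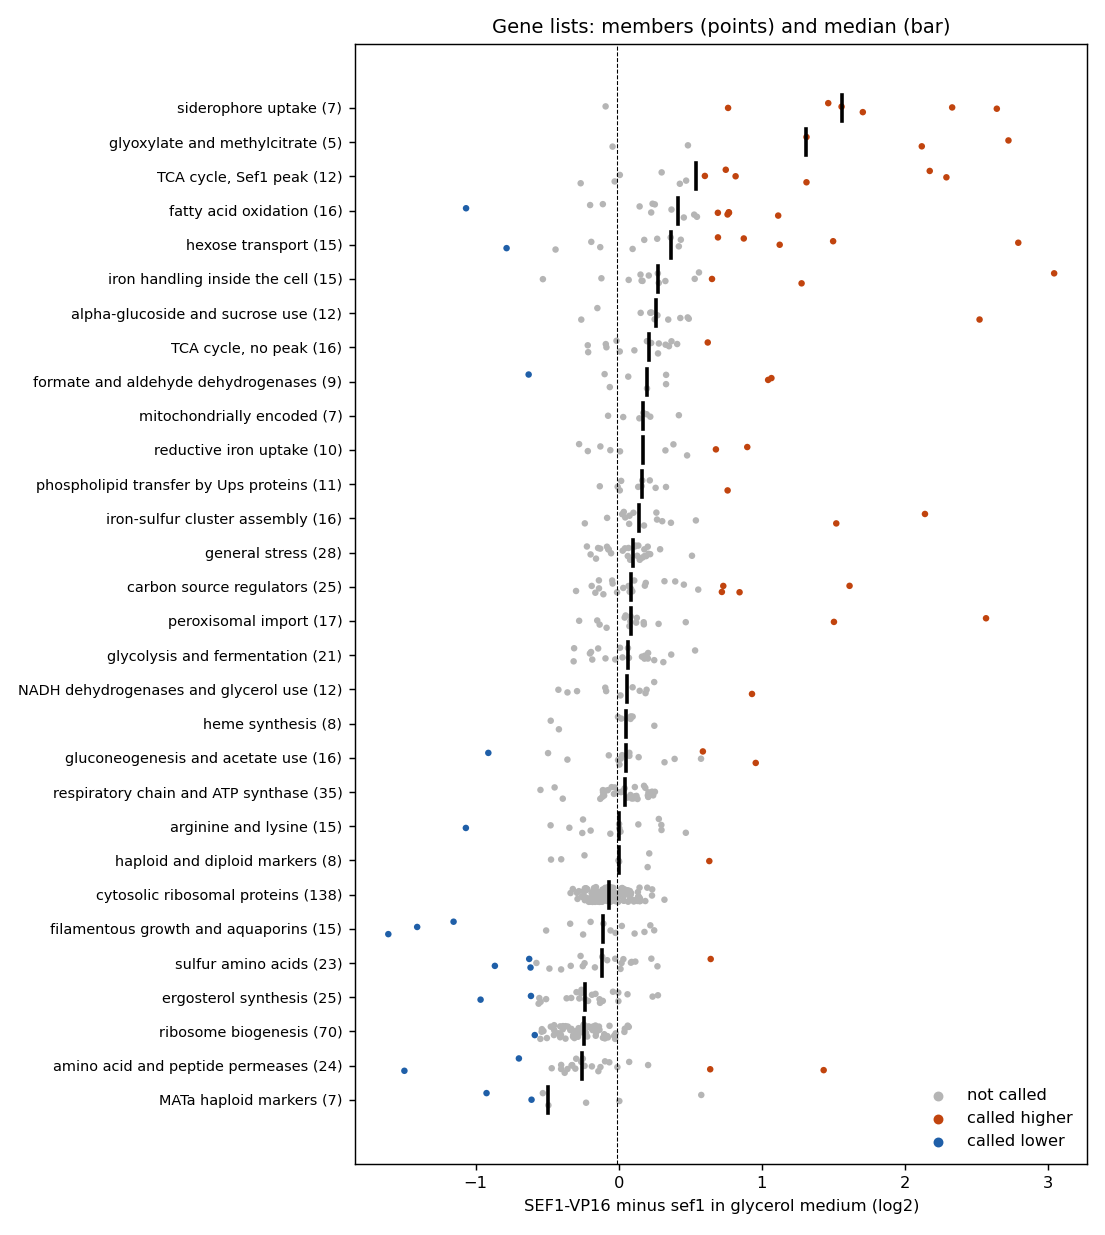
Difference between SEF1-VP16 and sef1 in YPGly (log2, horizontal axis) for the members of each gene list with at least 5 tested genes (points, orange where called higher, blue where called lower and grey otherwise; number tested in parentheses), with black bars for the list median and a dashed line for the median of all tested probes. The siderophore list has the highest median, 1.56, and the MATa list the lowest, −0.49, and most lists lie close to the dashed line.

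Position on the chromosome was shared by part of the called genes. Among the 107 called increases that the reference table places on a nuclear chromosome, 24 (22.4%) had a called increase as the next measured gene on at least one side, where 3.82% of all 5474 placed probes did. For the 59 placed decreases it was 8 (13.6%) against 2.12%. Of 20 adjacent called pairs, 13 were both higher and 4 both lower. They included FIT2 with FIT3, CIT3 with PDH1, HXT1 with HXT4, RCK1 (1.0 ± 0.20) with ARI1, PMP3 (0.69 ± 0.08) with MTH1, and a run of REE1, IMA5, HXT8 and YJL213W (0.64 ± 0.09, 0.55 without replicate 1 of sef1) on chromosome X. Some pairs, such as YPL276W with FDH2 and ENA1 with ENA2, are near-identical copies. RCK1 was not called after normexp background correction and PMP3 not after quantile normalization. The other 3 pairs went opposite ways: UPS2 with APS1, FDH2 with SAM3, and ISA1 with TPO1, a polyamine exporter that fell by 0.67, or 0.58 without replicate 3 of SEF1-VP16, where it was not called.

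Genes with a Sef1 peak, as the study assigned them from its own binding data, were set beside the calls by name only. Of 111 called increases 38 (34.2%) and of 63 called decreases 19 (30.2%) had a peak, against 10.2% of the tested probes. The genes at the 50 strongest peaks in YPGly held 19 increases (17.1% of the increases) and 1 decrease, TPO1 (1.59%), where they made up 1.06% of the tested probes. Among the 60 tested genes at these peaks the median difference was 0.25 (0.14 after quantile normalization), and 40 were not called. The increases there included IDH1, IDH2, ISA1, ISU1, ICL2, PDH1, ECM13, PEX21, NDE1, HAP4 and AAT2. None of the siderophore genes, TIS11 or the hexose transporters was among these increases at the 50 strongest peaks. Whether they had a weaker peak is not given here.

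The same strains were compared in YPD to ask where the glycerol comparison differs. The difference in YPGly minus that in YPD was called at 486 of 5641 probes (8.62%), 240 higher (4.25%) and 246 lower (4.36%). The YPD arrays of these strains lay on other slides, so that medium and slide cannot be told apart here. In YPD the sef1 and SEF1-VP16 arrays also lay on different slides from each other. Strain and slide therefore cannot be told apart in any YPD difference, nor in the difference between media. Of the 111 called increases the YPGly difference minus the YPD difference was called above 0 for 72 and below 0 for 4, and 35 were not called. Of the 63 decreases it was called below 0 for 40 and above 0 for 2, and 21 were not called. The sign does not tell whether a gene also differed in YPD. HMS1, among the 40, was higher by 0.34 in YPD, and YBL065W, among the 2, was lower by 3.94. These probes had been called on the YPGly difference, which is also part of this contrast, so nothing is read from those shares.

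IDH2 read 4.38 ± 0.29 in SEF1-VP16 and 2.10 ± 0.04 in sef1 in YPD (SD, n = 4), a difference of 2.28 that the YPGly value changed by 0.01 ± 0.16 (adjusted p 0.98). The change between media was also small for ISA1 (−0.07 ± 0.10), PEX21 (−0.11 ± 0.11) and NDE1 (−0.19 ± 0.18). ECM13 differed more in YPD (0.98 ± 0.11 against −4.56 ± 0.19), as did IDH1 (4.46 ± 0.24 against 0.67 ± 0.08) and PDH1 (−0.74 ± 0.15 against −5.07 ± 0.12). For several sugar and iron genes the strains were closer in YPD. HXT2 was at 2.62 ± 0.17 and 2.89 ± 0.14 in YPD, IMA5 at −4.04 ± 0.25 and −3.47 ± 0.07, and FIT3 at −2.38 ± 0.21 and −2.56 ± 0.09. TIS11 differed in both, with −2.92 ± 0.14 and −4.08 ± 0.11 in YPD. HMS1, the leading decrease, was at −1.61 ± 0.06 and −1.95 ± 0.08 in YPD.

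**Figure D5:**
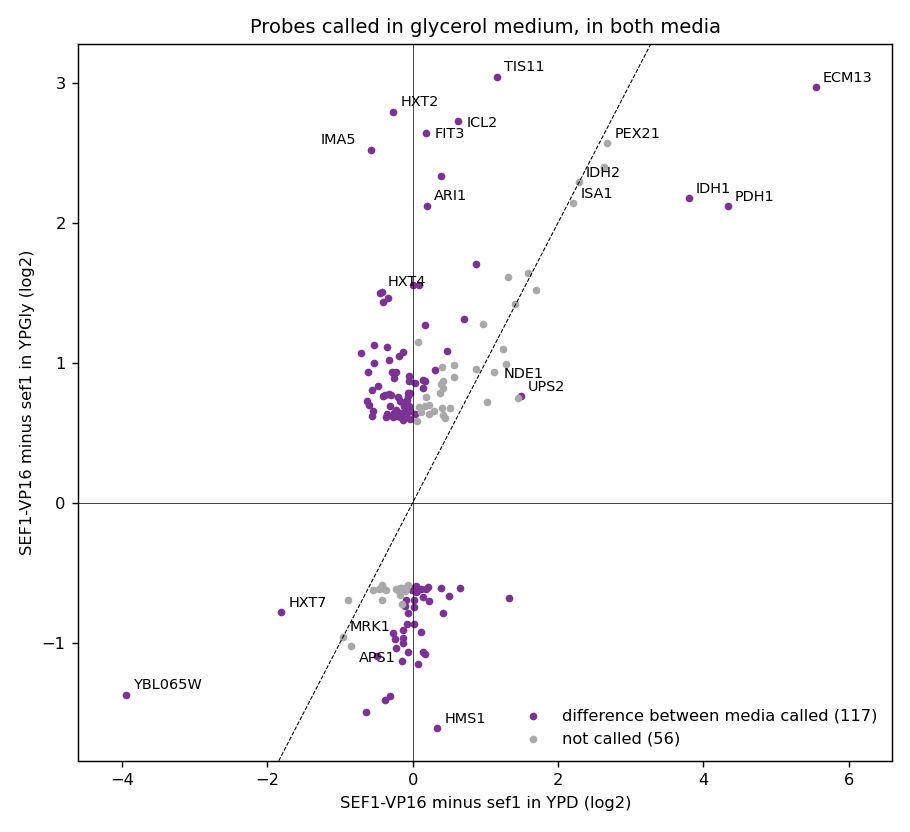
Difference between SEF1-VP16 and sef1 in YPGly (log2, vertical axis) against that in YPD (log2, horizontal axis) for the 173 probes called in YPGly other than SEF1, with equal differences on the dashed line. The strains shared a slide in YPGly and lay on different slides in YPD. Purple points (117) were called for the difference between media and grey points (56) were not; IDH2, ISA1 and PEX21 lie on or beside the line and HXT2, IMA5, FIT3 and HMS1 near the vertical axis.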

How the data were processed

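Total RNA from 4 biological replicates of each strain and medium was hybridised to 24 one-colour Agilent yeast arrays after oligo-dT priming and labelling of the cDNA with an Alexa dye. Per the file headers, the deposited intensity values were extracted, background-subtracted and scaled by the authors with Agilent Feature Extraction 10.5.1.1. The authors also deposited log2 values, scaled to the 75th percentile in GeneSpring, which served as an alternative. The SEF1-VP16 and sef1 arrays in YPGly shared 1 slide by these headers, although their file names repeat the identifier of the slide with WT in YPGly.

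Outlier spots (164) and control spots were left out, and spots of a probe were averaged. Processed intensities were taken to log2 and the 75th percentile of each array was subtracted. Of 6256 probes, 5641 (90.2%) with a mean intensity of at least 200 in at least 1 of the 6 groups were tested, and 5756 carry a name from the reference gene table. Over the 8 arrays 90.9% to 96.5% of probes were well above background and 0 spots were saturated. limma 3.58.1 (R 4.3.3; lmFit and eBayes) was fitted to the 8 arrays and, for the dependence on the medium, to the 16 arrays of both strains as an interaction. p-values were adjusted by Benjamini-Hochberg over all tested probes, and a call needed an adjusted p below 0.05 and a 1.5-fold change. The script was tested on simulated data.

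Named genes were the 20 largest called increases and 20 largest called decreases, the called members of each gene list with up to 2 of its brightest uncalled members, SEF1, YBL065W and the 6 candidates of the study. Genes added after their values were seen are marked as such. The comparison, its members and the lists were chosen with earlier results of these data known. Adjacency was read from gene order in the reference table, and peak genes from the study's supplementary tables by name only. The Sef1 motif was not searched in promoters, since no sequence was used here. Alternatives were normexp background correction, array-median and quantile scaling, the deposited log2 values, other filters and fold minimums, the methods' t-test, a fit of all 24 arrays, the replicate block and leaving out each array.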

Additional observations from a re-analysis of the deposited data

Results flagged for a closer look

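For 16 of 316 groups of 4 arrays (5.06%) 1 array stood clear of the other 3 by Dixon's criterion, where chance gives about 1 in 20. Replicate 1 of SEF1-VP16, the dimmest array, was the one in 12 of them. It was above the other 3 for PEX21 (1.25), AQY1 (−3.40), SOA1 (−3.09), PXP1 (0.25), MET13 (−1.27), RME1 (0.74), YMR086C-A (−4.15) and PMP3 (3.41), and below them for NFG1 (−4.78), MGE1 (0.41), CYS4 (1.92) and SSB1 (1.14). The others were replicate 3 of sef1 for YBL065W (−0.12), replicate 1 of sef1 for NFS1 (0.076) and MET2 (−2.35), and replicate 2 of sef1 for LYS9 (0.84).

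For 90 of the named genes the strain difference in YPGly was called different from that in YPD. Each value below is the YPGly difference minus the YPD difference on the log2 scale, and the part of the slides in it cannot be told apart. At the SEF1 locus it was 1.85 for SEF1, whose sef1 levels are background, and 2.57 for YBL065W, which differed by −3.94 in YPD. Among iron genes it was 2.46 for FIT3, 1.94 for FIT2, 1.89 for TIS11, 1.80 for ARN2, 1.47 for ARN1, 0.84 for SIT1, 0.83 for ENB1 and 1.01 for HMX1.

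Among sugar genes it was 3.09 for IMA5, 3.06 for HXT2, 1.95 for HXT4, 1.66 for HXT10, 1.31 for HXT6, 1.03 for HXT7, 1.01 for HXT8, 0.73 for HXT1, 1.05 for SUC2, 0.69 for IMA3 and 0.80 for MTH1. HXT7 was lower in SEF1-VP16 in both media, and by more in YPD (−1.81). In central carbon metabolism it was 2.10 for ICL2, 0.61 for CIT3, 0.85 for SHH4, 0.73 for ACS1, 0.75 for GUT2, 0.68 for GCY1, 0.77 for CAT8, 0.93 for ALD4, 1.23 for FDH1 and 1.78 for FDH2. It was below 0 for PDH1 (−2.21), IDH1 (−1.63), IDP2 (−1.37), MLS1 (−0.87), PYC1 (−0.78) and ALD5 (−0.69). ECM13 (−2.58) and UPS2 (−0.73) were also below 0, being higher in SEF1-VP16 in both media and by more in YPD.

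Among peroxisomal genes it was 1.92 for PEX9, 1.47 for DCI1, 1.35 for LPX1, 1.18 for POT1, 1.16 for POX1, 1.06 for FOX2, 1.03 for CTA1, 0.81 for SPS19, −1.01 for ANT1, −0.98 for PCS60 and −0.66 for PXP1. Among permeases and transporters it was 1.84 for CAN1, 0.90 for ALP1, 0.82 for SUL1, 0.80 for PUT4, 1.55 for PIC2, −0.86 for OPT2, −0.61 for SAM3, −0.61 for SOA1, −0.74 for YCT1, −0.87 for GIT1, −1.17 for TPO1 and −0.82 for PDR5.

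Among the genes described beside IME1 and the mating type markers it was 1.31 for SPR28, 1.21 for DMC1, 1.14 for MPC54, 0.98 for DIT2, 0.83 for LDS2, 0.70 for DIT1, −1.04 for MFA2, −0.99 for MFA1, −0.72 for STE2 and 0.62 for ASG7. Among the remaining genes it was 1.92 for ARI1, 1.54 for RCK1, 1.22 for REE1, 0.73 for YJL213W, −1.95 for HMS1, −1.23 for NFG1, −1.03 for AQY1, −1.26 for PHO3, −0.93 for PHO5, −1.21 for ARG1, −0.88 for MET6, −1.07 for CYB5, −0.83 for ERG5, −0.81 for MNN4, −0.75 for SSB1, −0.78 for SSB2, −0.66 for NSR1 and −0.65 for BSC5.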

How the results depend on the processing

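The 174 calls in YPGly stayed between 148 and 217 under the other backgrounds, scalings, filters, fits and the methods' t-test (150). With no fold minimum 1282 probes passed (563 higher, 719 lower), and with a 2-fold minimum 52 did (38 and 14). Scaled to the array median, 129 were higher and 39 lower, which moved the share of increases from 63.8% to 76.8%. Leaving out 1 array gave 165 to 194 calls, 107 to 119 higher and 56 to 75 lower. The dependence on the medium, called at 486 probes, gave 2111 with no fold minimum (942 higher, 1169 lower) and 105 with a 2-fold minimum (65 and 40). Scaled to the array median it split into 361 higher and 157 lower, or 69.7% higher instead of 49.4%. Leaving out 1 array gave 445 to 547, 213 to 268 higher and 223 to 279 lower.

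Of 108 named calls 82 held under every alternative except the 2-fold minimum, and 0 changed direction. The array median lost UTP20, MET2, MET13, ALD5, HMG1, MFA1, BSC5 and YMR086C-A, the t-test ACO1, CIT1, FUM1, SHH4, FET3, ACS1, MET13, DMC1, REE1, BSC5 and YMR086C-A. After normexp, run on median spot and background signals, HXT6 had no value, and ACO1, SHH4, HXT8, ACS1, UTP20, MET2, MFA1, RCK1, REE1, BSC5, YMR086C-A and YJL213W were lost. Quantile normalization lost ACO1, CIT1, FUM1, SHH4, ACS1, UTP20, MET2, MET13, MFA1, BSC5, DLD1 and PMP3. Testing all probes lost ACO1, FUM1, SHH4, REE1, BSC5 and YMR086C-A. CTA1 passed 1.5-fold with array medians, and ASG7 with array medians and after quantile normalization. The causes were not tested.

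Same-numbered arrays of the strains shared a column of the slide, and the labels give no other link between them (correlations of same-numbered deviations 0.16, −0.14, 0.31 and −0.11). With the replicate number, and so the slide column, as a block 178 probes were called in YPGly, 112 higher and 66 lower, and 486 for the medium. Precision is limited by 4 arrays a strain and, for dim probes, by background.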
